A study of Mus musculus with 8 samples.

Results

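The genes of MHC class II antigen presentation were examined in the proximal small intestine of mice with and without Pdx1 in the gut epithelium. The members were 10 genes named in advance of this account: H2-Aa, H2-Ab1, H2-Eb1, Cd74, Ciita, H2-DMa, H2-DMb1, H2-DMb2, H2-Oa and H2-Ob. Every probe set whose only gene symbol was one of these was taken. This gave 19 probe sets for 9 genes, out of 45037 probe sets and 18193 genes with a symbol of their own. H2-DMb1 had no such probe set, since 2 probe sets list it together with H2-DMb2, and it has no value here.

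The knockout group was 4 male mice of genotype Pdx1flox/flox;VilCre aged 6 months. Cre recombinase in them is driven by a 12.4 kb piece of the villin 1 promoter, which is active in the intestinal epithelium, and it removes the Pdx1 exon that encodes the homeodomain. The control group was 4 male Pdx1flox/flox mice of the same age without the transgene. Both groups thus carry floxed Pdx1 alleles, and mice with Cre but no floxed allele were not analysed here. The labels describe each mouse as a brother of the same litter, kept on a standard diet with 4.5% fat. RNA came from the 5 cm of intestine next to the pylorus, as whole tissue, with 1 Affymetrix array per mouse. All values are log2 levels, so a difference of 1 is a doubling.

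In whole tissue, fewer cells of a type and less RNA per cell cannot be told apart. Array medians lay between 5.23 and 5.28, and Pearson's r between arrays across probe sets was between 0.990 and 0.996. Pdx1, the targeted gene, was lower in every knockout than in any control: its probe set with the higher mean read 5.93 ± 0.25 against 8.52 ± 0.36 (SD, n = 4 each; adjusted p = 4.16e-04 in limma). All 11 measured markers of small intestine epithelium were present, with means between 8.87 and 14.59, but exocrine pancreas markers were high too, with means between 12.79 and 13.99. The summed pancreas level, as mean deviation over 6 genes, ran from -1.41 in control 3 to 1.05 in control 4.

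MHC class II molecules present peptides from endosomes to CD4+ T cells. H2-Aa with H2-Ab1 form the I-A molecule, and H2-Eb1 is the beta chain of I-E. Cd74 encodes the invariant chain, which guides new class II molecules to endosomes and blocks their groove. H2-DMa pairs with an H2-DMb chain to release the last piece of the invariant chain and to edit the peptides, and H2-Oa with H2-Ob form a protein that restrains this editor, mainly in B cells. Ciita is a coactivator of class II gene transcription. Dendritic cells, macrophages and B cells carry class II at all times, and the villus epithelium of the small intestine also does so, under interferon gamma. In the RefSeq order of GRCm38.p6, 8 of the 10 members lie in a run of 13 protein-coding genes from H2-Oa to H2-Eb1, a run that also holds the class I pathway genes Psmb9, Tap1, Psmb8 and Tap2.

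Ciita acts through factors bound to a shared promoter module, with an X box read by the RFX complex and CREB and a Y box read by NF-Y. The stretches below are examples from 5 genes. Whether they bear on the patterns across the mice, described further on, was not tested. Each runs 5′ to 3′ on the gene's strand from 150 to 31 bases before the RefSeq start (GRCm38.p6), and capitals mark motif matches. H2-Aa is at chr17:34287854-34287973 on the minus strand. The others are on the plus strand: H2-Eb1 at chr17:34305717-34305836, H2-DMb2 at chr17:34145099-34145218, H2-Ob at chr17:34238755-34238874 and H2-Oa at chr17:34092229-34092348.
H2-Aa: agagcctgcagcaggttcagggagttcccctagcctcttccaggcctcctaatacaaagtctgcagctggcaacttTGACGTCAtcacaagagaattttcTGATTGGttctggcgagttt
H2-Eb1: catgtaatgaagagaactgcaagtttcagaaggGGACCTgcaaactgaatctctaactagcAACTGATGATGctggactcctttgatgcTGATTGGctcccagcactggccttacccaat
H2-DMb2: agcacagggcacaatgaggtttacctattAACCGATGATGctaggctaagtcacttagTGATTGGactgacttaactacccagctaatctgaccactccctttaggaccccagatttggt
H2-Ob: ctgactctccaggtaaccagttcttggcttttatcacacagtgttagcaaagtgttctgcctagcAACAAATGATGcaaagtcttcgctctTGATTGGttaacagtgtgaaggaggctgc
H2-Oa: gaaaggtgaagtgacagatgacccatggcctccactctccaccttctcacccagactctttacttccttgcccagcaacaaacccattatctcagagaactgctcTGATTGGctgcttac

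The motifs were chosen with these sequences in view and searched on both strands of windows from 250 bases before to 50 after the start. Promoter windows were listed for 7 members in 8 windows, H2-DMa having 2. The Y box letters TGATTGG were found in 6 of the 7 genes, all but H2-DMa, and in 7.82% of all 32851 windows. The X box letters, AAC, any 2 bases and ATGATG, were found in H2-Eb1, H2-DMb1, H2-DMb2 and H2-Ob, and in 0.137% of all windows. Between the X and Y matches there were 17 bases in H2-Eb1, 18 in H2-DMb1 and H2-DMb2, and 15 in H2-Ob. H2-Aa had the CREB site core TGACGTC (3.21% of windows) near that place, with matches on both strands that overlap. The S box core GGACCT was found in 4 genes, H2-Eb1, H2-DMb1, H2-DMb2 and H2-Ob, and in 14.8% of windows. It lay at unlike distances from the X match. Counted from the start, its first base was at -117 in H2-Eb1 (X at -89) and -147 in H2-DMb1 (X at -92). In H2-Ob it was at -218 (X at -85). In H2-DMb2 it was at -187 and, on the other strand, at -165 (X at -121). These are letter matches and not measured sites. They did not sort the genes by the patterns across the mice described further on. H2-Eb1, H2-DMb2 and H2-Ob, of different patterns, all had X and Y matches, and H2-DMa, which varied closely with H2-Aa, had neither.

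No class II gene passed the test between knockout and control. Of the 19 probe sets 0 were called in limma at an adjusted p under 0.05, where 0.0422% of all probe sets were called (0.00444% higher and 0.0377% lower in the knockout). At an unadjusted p under 0.05 there was 1 of 19, against 7.13% of all probe sets, and an ordinary linear model also called 0. In 0 of the 19 were the groups free of overlap, as they were in 4.43% of all probe sets. All 19 had a higher mean in the knockout, against 50% of all probe sets, but many of these probe sets move together from mouse to mouse and do not count as separate evidence. With each of the 9 genes read from its brightest probe set, the median log2 difference was 0.20, against a median near 0 over all probe sets (4.75e-05).

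The antigen-presenting chains set the main pattern, in which a knockout mouse and a control mouse, knockout 3 and control 2, stood high. The likeness of these mice was not confined to the members. Over all probe sets their deviations from the group means had r = 0.597, and no other control and knockout had a higher r. H2-Aa read 12.24, 13.32, 12.72 and 12.05 in controls 1 to 4 and 12.52, 12.65, 13.71 and 12.25 in knockouts 1 to 4. Knockout 3 was highest and control 2 second, and the other 6 mice lay between 12.05 and 12.72 with the groups mixed. The group means were 12.78 ± 0.64 and 12.58 ± 0.57 (knockout and control, SD, n = 4 each), a difference of 0.20 with a 95% interval from -0.54 to 0.94 (adjusted p = 0.931 in limma).

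H2-Ab1, the partner chain, read 11.90, 12.99, 12.44 and 11.56 in the controls and 12.21, 12.39, 13.53 and 11.97 in the knockouts. The order of the 8 mice was that of H2-Aa, and the difference of 0.30 had an interval from -0.50 to 1.10 (adjusted p = 0.896 in limma). H2-Eb1 read 11.55, 12.58, 11.99 and 11.55 in the controls and 11.83, 12.11, 12.85 and 11.68 in the knockouts. Again knockout 3 and control 2 were on top, and the difference was 0.20 with an interval from -0.42 to 0.82 (adjusted p = 0.911). Cd74 read 12.61, 13.48, 13.00 and 12.40 in the controls and 12.72, 13.06, 14.06 and 12.41 in the knockouts. Its difference of 0.19 had an interval from -0.55 to 0.93 (adjusted p = 0.937). For each of these chains the difference was smaller than the SD between mice of a group.

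The further probe sets of these chains gave the same picture. Across the 8 arrays the other H2-Aa probe sets had r of 0.995, 0.996 and 0.956 with the one described, and those of H2-Ab1 had 0.995 and 0.991. The dimmest H2-Aa probe set spanned the most, from 5.53 in control 4 to 8.61 in knockout 3, an 8.47-fold range. Some of these probe sets carry name endings that mark probes shared with other transcripts, so they may also read related class II chains.

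**Figure D1:**
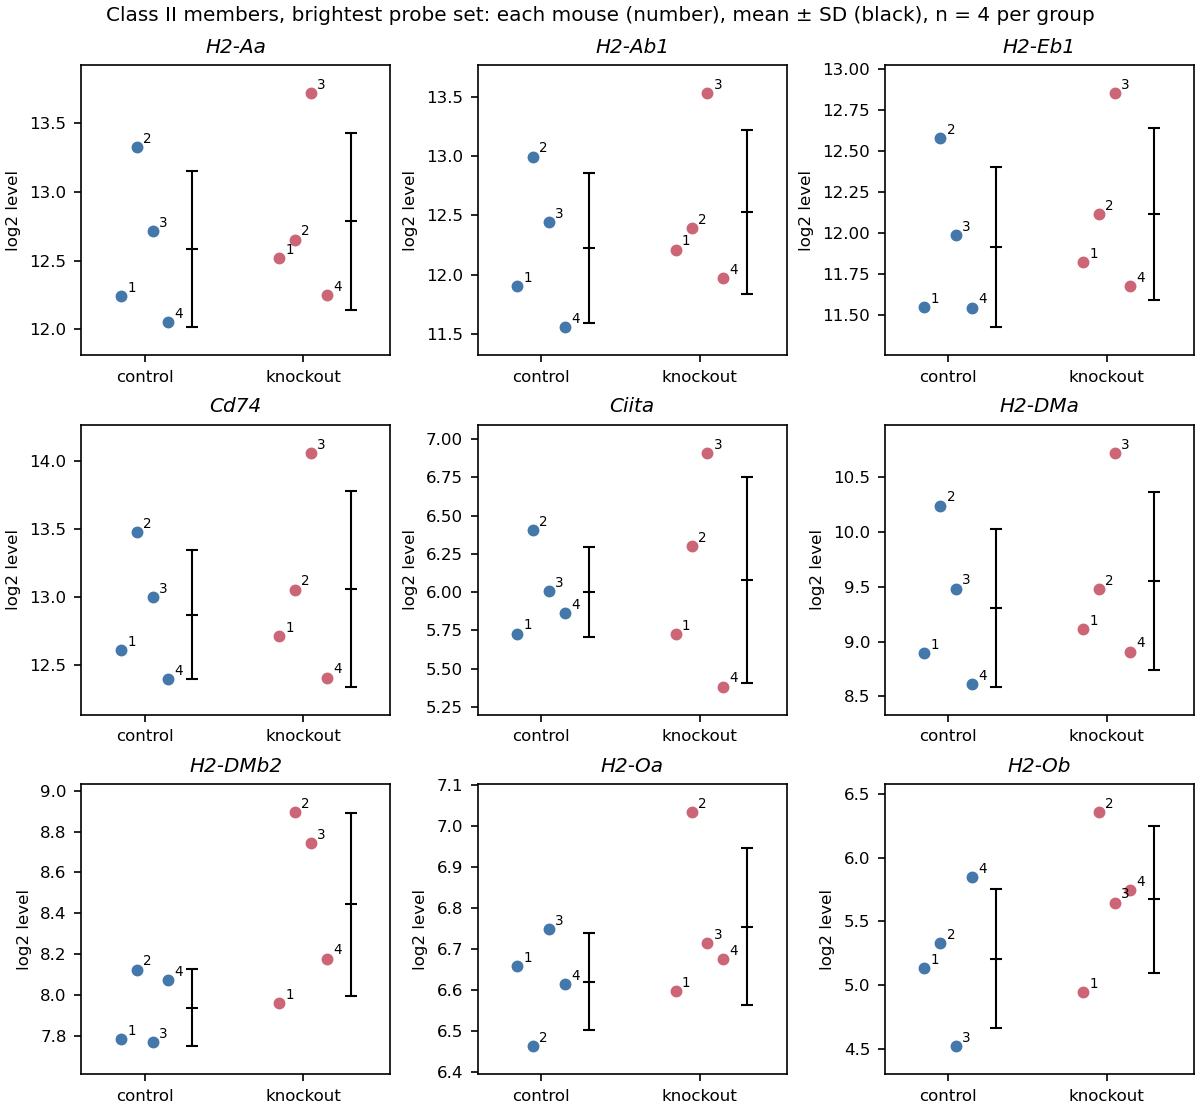
Log2 level of 9 class II genes (y axis, a scale of its own in each panel) in 4 control and 4 knockout mice (x axis). Points are mice with their replicate number, and black bars are the mean ± SD. Knockout 3 and control 2 are the top mice for H2-Aa, H2-Ab1, H2-Eb1, Cd74, Ciita and H2-DMa, while knockout 2 is the top mouse for H2-DMb2, H2-Oa and H2-Ob, and no panel separates the groups.

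Ciita, the coactivator, shared the top mice of the chains, with the other mice in another order. Its probe set with the highest mean read 5.73, 6.41, 6.01 and 5.86 in the controls and 5.72, 6.30, 6.91 and 5.38 in the knockouts. Knockout 3 and control 2 were highest and knockout 4 lowest, and the difference of 0.079 had an interval from -0.55 to 0.71 (adjusted p = 0.972 in limma). The lower probe sets of Ciita had means of 5.14 and 4.10, near or under the array medians, where an unknown share of the value is background. Their differences were larger, 0.32 and 0.17, and the mean over the probe sets of Ciita differed by 0.19, but none passed (adjusted p = 0.818 and 0.787 for these probe sets in limma). They too were highest in knockout 3, at 6.08 and 4.49, and their r with the first was 0.882 and 0.852.

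Among the peptide editors, H2-DMa kept the pattern of the chains and the others did not. H2-DMa read 8.90, 10.24, 9.48 and 8.61 in the controls and 9.11, 9.48, 10.72 and 8.91 in the knockouts, a 4.32-fold range between mice. Its difference between the groups was 0.25, with an interval from -0.68 to 1.18 (adjusted p = 0.932 in limma). A second, dimmer probe set of H2-DMa with a mean of 7.24 spanned 0.59 between mice and had r = 0.669 with the first.

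H2-DMb2 is a beta chain of the same editor. It read 7.78, 8.12, 7.77 and 8.07 in the controls and 7.96, 8.89, 8.74 and 8.18 in the knockouts. Knockouts 2, 3 and 4 were above every control and knockout 1 was not. The difference was 0.51 (SE 0.19) with an interval from 0.078 to 0.94, the 1 member interval that did not include 0. Adjusted over all probe sets in limma, p was 0.663. Its other probe sets differed by 0.41 (adjusted p = 0.708) and 0.31 (adjusted p = 0.715). All 3 were highest in knockout 2. The sequence of H2-DMb1 is similar, so these probe sets may read both genes.

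H2-Oa and H2-Ob, the chains of the restraining protein, were also highest in knockout 2. H2-Ob read 5.13, 5.33, 4.52 and 5.85 in the controls and 4.94, 6.36, 5.65 and 5.75 in the knockouts. Control 2, high for the antigen-presenting chains, was in the middle here, and control 4, lowest for H2-Aa, was second. The difference was 0.47 with an interval from -0.22 to 1.16 (adjusted p = 0.787 in limma). H2-Oa read 6.66, 6.46, 6.75 and 6.61 in the controls and 6.60, 7.03, 6.71 and 6.67 in the knockouts. It spanned 0.57 over all mice, and the difference of 0.13 had an interval from -0.094 to 0.36 (adjusted p = 0.818).

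**Figure D2:**
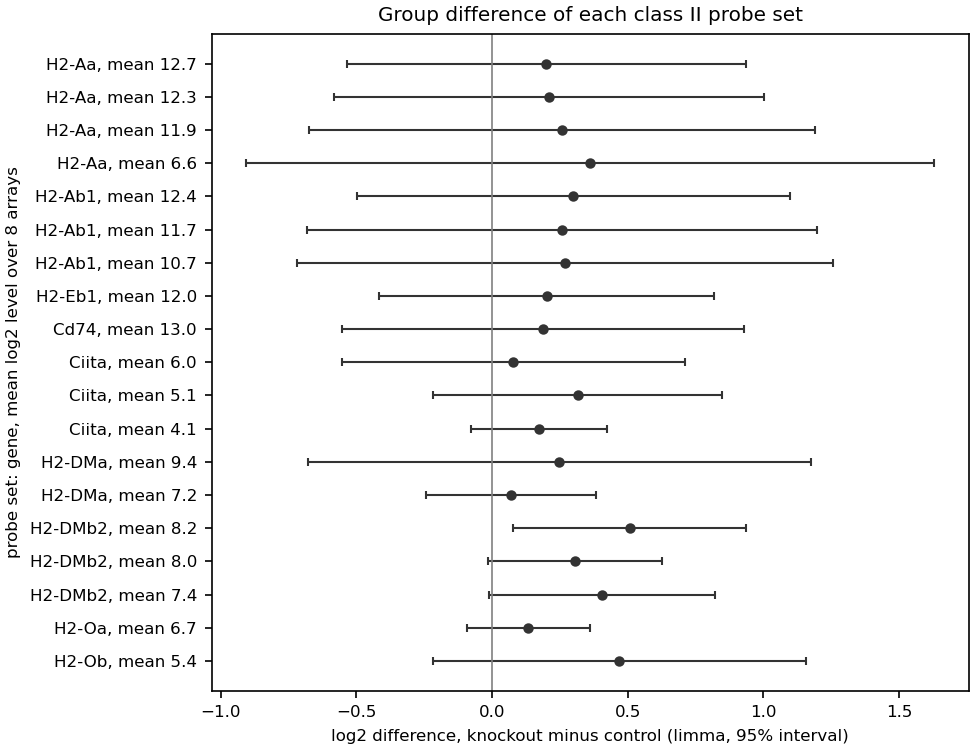
Log2 difference, knockout minus control (x axis), with its 95% interval from limma for each of the 19 class II probe sets (y axis, with the gene and its mean log2 level). All 19 points lie above 0, and the intervals include 0 except that of the H2-DMb2 probe set at 0.51.

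The wide intervals follow the spread between mice within groups, which was large for most members. The median within-group SD was 0.56 over the 19 probe sets and 0.13 over all probe sets. For H2-Aa the SD within groups was 0.61, larger than in 95.4% of the 389 probe sets within 0.5 of its mean, whose median SD was 0.094. The share was 96.8% for H2-Ab1, 96.8% for H2-Eb1, 94.1% for Cd74, 98.5% for Ciita, 99.2% for H2-DMa, 95.1% for H2-DMb2 and 99.2% for H2-Ob. H2-Oa was the exception, with an SD of 0.16 that was larger than in 60.7% of like probe sets. From the lowest to the highest mouse, levels ranged 3.16-fold for H2-Aa, 3.91-fold for H2-Ab1, 2.47-fold for H2-Eb1 and 3.17-fold for Cd74.

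**Figure D3:**
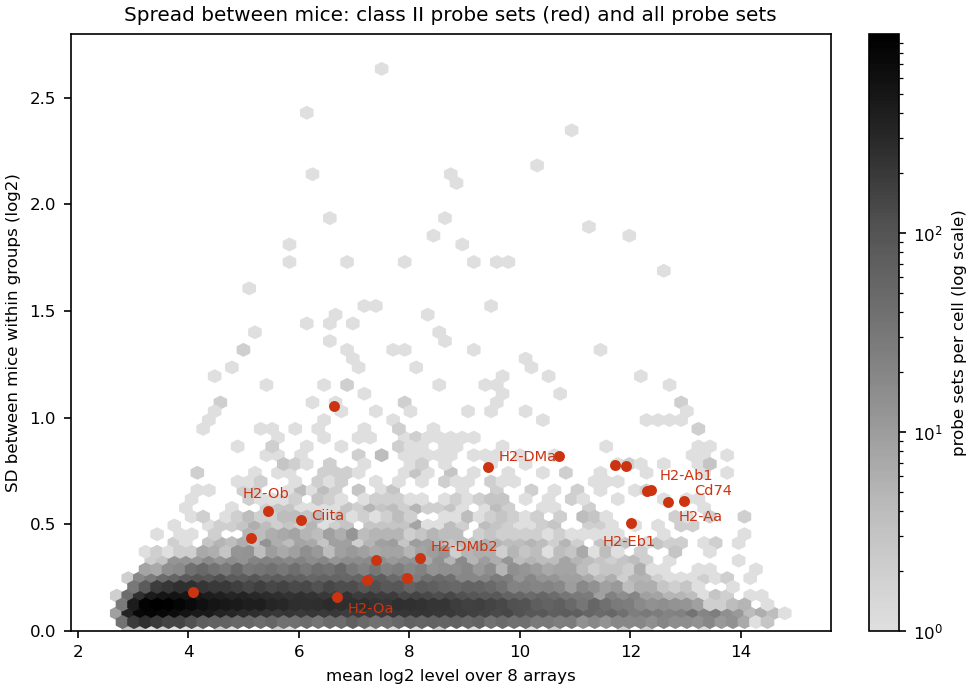
SD between mice within groups (y axis, log2) against the mean log2 level over 8 arrays (x axis). Red points are the 19 class II probe sets, named at the probe set with the highest mean of each gene, and grey cells count all probe sets on a log scale. Most red points lie above the bulk of probe sets of like mean, at a median SD of 0.56 against 0.13 over all probe sets, and H2-Oa lies within it.

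Across the 8 mice the members fell into a tight set, with Ciita less close to it, and a loose remainder. H2-Aa correlated with H2-Ab1 (r = 0.994, rho = 1.00), H2-DMa (r = 0.997, rho = 1.00), H2-Eb1 (r = 0.989, rho = 0.976), Cd74 (r = 0.985, rho = 0.952) and Ciita (r = 0.889, rho = 0.762). By an exact permutation test, adjusted over the 43 relations computed, p for r was 5.33e-04 for H2-Ab1 and H2-DMa, whose unadjusted p of 2.48e-05 is the smallest that 8 arrays can give. It was 0.00178 for H2-Eb1, 0.00187 for Cd74 and 0.0207 for Ciita. The adjusted exact p for rho was 0.00107 for H2-Ab1 and H2-DMa, 0.00569 for H2-Eb1, 0.0123 for Cd74 and 0.176 for Ciita. Without control 2 and knockout 3, the 2 mice farthest from the median of H2-Aa, r was still 0.986 for H2-Ab1, 0.982 for H2-DMa, 0.935 for H2-Eb1 and 0.937 for Cd74, and 0.576 for Ciita. With these 6 mice the adjusted exact p was 0.0299 for H2-Ab1 and H2-DMa, 0.131 for H2-Eb1 and Cd74, and 0.653 for Ciita. The first pair thus still passed, and the others did not.

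No relation of H2-Aa passed with H2-DMb2 (r = 0.473, rho = 0.310), H2-Oa (r = -0.068, rho = 0.214) or H2-Ob (r = -0.037, rho = -0.214), with adjusted exact permutation p for r of 0.346, 0.949 and 0.976. H2-DMb2 and H2-Ob varied together with r = 0.797 and rho = 0.810, but this pair was looked at after the values were seen. Its adjusted exact p was 0.0755 for r and 0.134 for rho. Without knockouts 2 and 3, the mice farthest from the median of H2-DMb2, r for that pair was 0.803.

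The genes named by likeness were the 8 with the highest r to the mean deviation of H2-Aa, H2-Ab1, H2-Eb1 and Cd74 from their group means, over 8 arrays and among 16831 probe sets with a mean of at least 6. They were Opa3, Dusp8, Itpka, Tuba4a, Tmem50b, Krt42, Atpsckmt and Armc6, with r between 0.99 and 1.00. They spanned less between mice than those chains, from 0.18 for Atpsckmt to 1.00 for Dusp8 between the lowest and the highest mouse. With so many probe sets set against 8 arrays, high values of r are to be had for many genes, and they are given as a description only.

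Class I presentation genes, which load peptides from the cytosol, moved with the antigen-presenting chains from mouse to mouse. Knockout 3 was the highest mouse in 13 of the 14 measured class I pathway genes, and control 2 was second in 12 of these, while over all probe sets 17.8% had knockout 3 highest and 5.42% had that order. The order was looked at after the values were seen, and genes that move together do not count as separate evidence. In the class II members 14 of 19 probe sets had it. The class I coactivator Nlrc5, chosen after its values were seen, read 5.24, 6.57, 5.04 and 4.86 in the controls and 5.00, 5.56, 7.08 and 5.40 in the knockouts. The peptide transporter Tap1, chosen likewise, read 8.30, 9.21, 8.31 and 8.29 in the controls and 8.23, 8.90, 9.82 and 8.22 in the knockouts.

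Between knockout and control 0 class I pathway genes rose and 0 fell, and 14 did not pass in limma. Their median difference was 0.15, and all 14 were above 0. The light chain B2m had 0.17 (adjusted p = 0.704), the heavy chains H2-K1 and H2-D1 had 0.12 and 0.15, and the trimming peptidase Erap1 had 0.16. The mean deviation of the list correlated with H2-Aa at r = 0.927 (adjusted exact permutation p = 0.0207) and rho = 0.690 (adjusted p = 0.199). Without control 2 and knockout 3, r was 0.422, so the relation rests on those mice.

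The route from interferon gamma to Ciita had 9 of 10 listed genes measured, and 0 rose, 0 fell and 9 did not pass. The median difference was 0.14. Irf1, a transcription factor induced by interferon, read 10.44 to 11.26 in the knockouts and 10.37 to 10.90 in the controls, with a difference of 0.21 (adjusted p = 0.823 in limma). Irf2 had 0.16, Jak2 had 0.12 and Irf8 had 0.25. Ifng itself, chosen after its values were seen, read 3.39 on average, far under the array medians, so its level is not known. The list correlated with H2-Aa at r = 0.879 (adjusted exact permutation p = 0.0207) and rho = 0.881 (adjusted p = 0.0623), and at r = 0.595 without control 2 and knockout 3.

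The DNA-binding partners of Ciita did not move as a block. With Ciita, 8 of 8 genes of the promoter complex were measured, 0 passed in either direction, and the median difference was -0.028. Nfyb, a subunit of NF-Y, had -0.15 (adjusted p = 0.742 in limma), Creb1 had -0.088, Nfyc had 0.046 and Rfxank had -0.056. Rfx5, a subunit of the RFX complex chosen after its values were seen, spanned 0.57 between mice. It shared the top mice of the chains, with 7.99 in knockout 3 and 7.86 in control 2. The other mice lay between 7.42 and 7.69 in another order, with control 1 lowest, where control 4 was lowest for H2-Aa. Creb1 spanned 0.49 and Rfxank 0.44, with other mice highest. Without Ciita the mean deviation of the list lay between -0.069 and 0.049 in all mice, and its r with H2-Aa was 0.407 (rho = 0.286, adjusted exact permutation p for r = 0.457).

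Among endosomal proteases and processing factors, which cut the invariant chain and make the peptides, 0 of 9 passed and the median difference was 0.017. Ctss, the cathepsin that cleaves the invariant chain in professional antigen-presenting cells, was chosen after its values were seen and lay between 11.82 and 12.02 in all 8 mice. Ctsh had 0.17 (adjusted p = 0.772 in limma), Lgmn 0.10, Ctsb 0.039 and Ctsl -0.072. Their mean deviation had r = 0.0047 with H2-Aa (rho = -0.190). In turnover and costimulation, 0 of 9 passed and 8 were above 0 (median 0.11), among them Cd40 at 0.19 (adjusted p = 0.741), the ubiquitin ligase Marchf1 at 0.19 and Cd83 at 0.21. The further class II loci were H2-Eb2 at 0.074 and H2-Ea at -0.15 (adjusted p = 0.721). H2-Ea lay between 6.60 and 6.95 in all mice and was lowest in knockout 3.

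**Figure D4:**
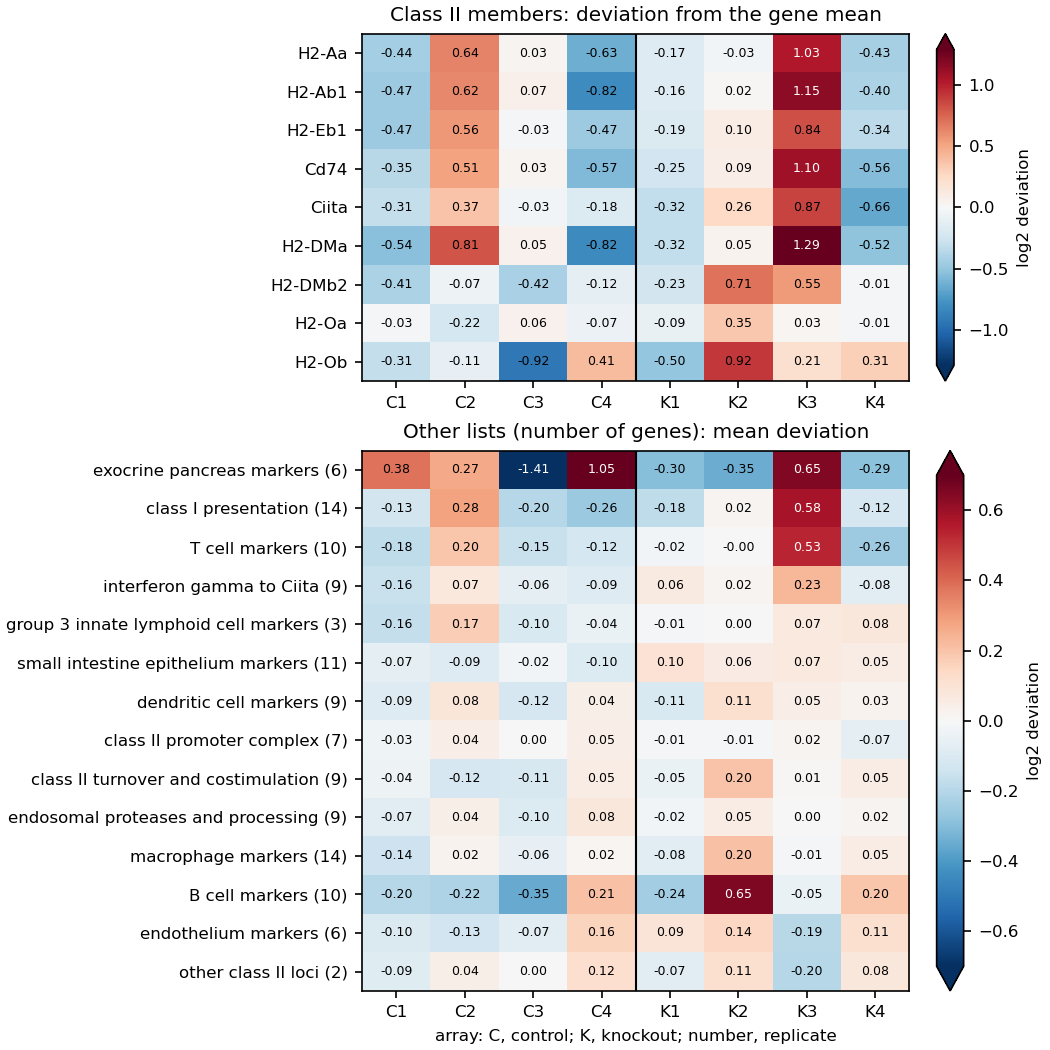
Deviation in each array (x axis: C, control; K, knockout) of 9 class II genes from their mean over 8 arrays (top), and the mean deviation of each further list with its number of genes (bottom), in log2 units with a scale of its own per panel and pancreas values past the end of it. K3 and C2 stand out in the upper rows of members, class I presentation and T cell markers. K2 stands out in H2-DMb2, H2-Oa, H2-Ob and the B cell markers, at 0.65 for the latter.

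Markers of the cell types that carry or meet class II moved with different members, and their part in the results was not tested. B cell markers were highest in knockout 2 in 9 of 10 measured genes, against 7.83% of all probe sets. All 10 had a higher mean in the knockout (median 0.29) with 0 past the test. Markers of the same cell type can move together from mouse to mouse and do not count as separate evidence. Ms4a1, which encodes CD20, had 0.60 (adjusted p = 0.739 in limma), Cd79b 0.39, Cd22 0.31 and Fcer2a 0.34. The mean deviation of the list ranged from -0.35 to 0.20 in the controls and from -0.24 to 0.65 in the knockouts. Its r was -0.231 with H2-Aa (rho = -0.333) and 0.726 with H2-DMb2 (rho = 0.738). The latter was chosen after the values were seen and did not pass (adjusted exact permutation p = 0.136 for r, 0.190 for rho).

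T cell markers went with the antigen-presenting chains. Knockout 3 was highest in 7 of 10 measured genes, and the mean deviation ranged from -0.18 to 0.20 in the controls and from -0.26 to 0.53 in the knockouts. Between the groups 0 of 10 passed and the median difference was 0.077, with Cd8b1 at 0.61 (adjusted p = 0.709 in limma), Cd2 at 0.29 and Cd4 at -0.077. Cd8b1 and Cd2 had means of 5.14 and 4.42, under the array medians, where an unknown share of the value is background. The list's r with H2-Aa was 0.918 (adjusted exact permutation p = 0.0207) and rho was 0.714 (adjusted p = 0.190), and without control 2 and knockout 3 r was 0.478.

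The mean deviations of dendritic cell and macrophage markers spanned less than those of B cell and T cell markers. Of 9 dendritic cell markers 0 passed and 4 were above 0 (median -0.0098). Cd209a had 0.39 (adjusted p = 0.684 in limma) and Flt3 had -0.12. Itgax, which encodes CD11c and was chosen after its values were seen, lay between 7.51 and 7.96 in all mice. Of 14 macrophage markers 0 passed and 12 were above 0 (median 0.071), and knockout 2 was the highest mouse in 8. Itgam, with 0.39, was highest in knockout 3, and Mertk, with -0.18, in control 1. The mean deviation lay between -0.12 and 0.11 for dendritic cells and between -0.14 and 0.20 for macrophages. Their r with H2-Aa was 0.314 (rho = 0.286) and 0.101 (rho = 0.143). With H2-DMb2 it was 0.775 (rho = 0.857) and 0.776 (rho = 0.786), with adjusted exact permutation p for r of 0.0988 and 0.0804, chosen after the values were seen. Of 6 listed markers of group 3 innate lymphoid cells 3 were measured, and their r with H2-Aa was 0.572 (rho = 0.50, adjusted exact permutation p for r = 0.275).

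In the epithelium, where Pdx1 was removed, 0 of 11 markers passed but all 11 had a higher mean in the knockout (median 0.11). Krt20 had 0.22 (adjusted p = 0.599 in limma), Vil1 0.19 and Cdx1 0.27. Their mean deviation was -0.10 to -0.02 in the controls and 0.05 to 0.10 in the knockouts, without overlap, for 1 of 14 lists so summed. The groups did not overlap in 4 of the 11 genes (Vil1, Fabp1, Fabp2 and Krt20), against 4.43% of all probe sets. Markers of the same tissue read in the same mice can move together, so these genes do not count as separate evidence. Fabp1 and Fabp2 were chosen after their values were seen. The list's r with H2-Aa was 0.196 (rho = 0.381, adjusted exact permutation p for r = 0.763). Endothelium markers (0 of 6 past the test, median 0.069) had r = -0.728 with H2-Aa (rho = -0.690, adjusted exact permutation p for r = 0.124). With deviations from each group's mean r was -0.833 (adjusted permutation p = 0.0319). That p is approximate, since such deviations sum to 0 within each group. Without control 2 and knockout 3, r for the endothelium markers was -0.216. Exocrine pancreas markers (0 of 6 past the test, median -0.16) had r = 0.050 with H2-Aa (rho = -0.262) over the 8 mice. Without control 2 and knockout 3, r was -0.874 (adjusted exact permutation p = 0.131) and rho was -1, the reverse order of H2-Aa. What lies behind this was not tested.

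The direction of the group difference in H2-Aa, H2-Ab1, H2-Eb1, Cd74, Ciita and H2-DMa turned without knockout 3. Without it the difference was -0.11 for H2-Aa, -0.034 for H2-Ab1, -0.043 for H2-Eb1, -0.15 for Cd74, -0.20 for Ciita and -0.14 for H2-DMa, with the lowest adjusted p over the 19 probe sets at 0.797 in limma. Without control 2 the median over the 9 genes was 0.45, and without control 2 and knockout 3 together, a choice made after the values were seen, it was 0.17. H2-DMb2, H2-Oa and H2-Ob had positive differences in every alternative in which they were fitted, between 0.36 and 0.67 for H2-DMb2, between 0.041 and 0.19 for H2-Oa and between 0.24 and 0.71 for H2-Ob, and none of these passed. H2-Oa had 0.041 without knockout 2. H2-Ob had 0.24 without control 3 and also without knockout 2, and 0.71 without knockout 1.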

How the data were processed

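The authors deposited a table of log2 values per probe set and array. Its scale was read from the values, 2.55 to 14.83. The submitters' processing notes name Partek 6.4 without a role, with background correction, summarisation and normalization not given in the sources used here. Array medians are near equal, so a change common to all transcripts would be hidden, and no detection calls were used.

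Of 45101 probe sets, 64 array controls were left out. GEO's platform annotation gave 1 symbol to 34945 probe sets, several to 932 and none to 9160, and 34741 were matched by Entrez identifier to RefSeq of GRCm38.p6. Promoter sequences are RefSeq's. Knockout minus control was fitted in limma (version 3.58.1, R 4.3.3; lmFit, then eBayes) over 45037 probe sets, two-sided, with Benjamini-Hochberg adjustment and no filter or block. The authors' replicates are separate mice, per the labels, and n is 4 per group; for arrays their number limits the precision. Where a gene had several probe sets, the brightest stood for it. Relations over 8 arrays used two-sided exact permutation tests. For deviations from group means the same permutation over all 8 arrays is only approximate, since these deviations are tied within each group. A list's mean deviation is taken over its non-member genes, each from its own mean over 8 arrays.

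Named genes were all members, up to 4 genes of each list with the smallest p, Pdx1, and the 8 most like genes; others are marked as chosen after their values were seen. The members and lists were chosen with earlier results of these data known. Mice of the same replicate number were not alike: their deviations correlated between -0.184 and 0.076. How the mice were paired, if at all, cannot be read from this. Some differently numbered mice were more alike, with r of 0.597 for control 2 and knockout 3 and 0.394 for control 1 and knockout 4. It was 0.317 for control 3 and knockout 1, and 0.201 for control 4 and knockout 2. In each of these pairs either mouse was the best match of the other, and the cause was not tested. No fit used such pairs. The scripts were tested on simulated data. Figures used matplotlib 3.10.9.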

Additional observations from a re-analysis of the deposited data

Results flagged for a closer look

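In groups of 4 mice the gap of the highest or lowest mouse to its neighbour was compared with the range of its group, for 19 class II probe sets in both groups. Of 38 such groups 1 passed Dixon's critical value, and chance passes about 1 in 20. It was the dimmest H2-Aa probe set, which read 8.61 in knockout 3 and 6.27 in the next knockout, a ratio of 0.938. The other H2-Aa probe sets were also highest in knockout 3 but did not pass.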

How the results depend on the processing

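The count of class II probe sets called was 0 in every alternative run: the replicate block, repeated quantile normalization, median centring, a mean of at least 6 (which leaves out H2-Ob), an ordinary linear model, array weights, a robust and trended prior, a floor at 5, and each array left out. The count over all probe sets was 19, between 13 and 20 with single arrays left out, 24 with the replicate block, 4 with the floor and 2 in the ordinary linear model. A shared replicate number did not go with likeness, since 0 mice correlated best with their own number. The replicate block changed no class II call. The median difference of the 9 genes ranged from -0.043 to 0.45 with single arrays left out. Array weights lowered it from 0.20 to 0.11, with H2-Aa at 0.079, Cd74 at 0.068, H2-Ab1 at 0.17, H2-Eb1 at 0.11, H2-DMa at 0.090 and Ciita at 0.0023. Averaging over all probe sets of a gene gave 0.19 for Ciita and 0.16 for H2-DMa. Over 161 single-gene alternatives 153 kept their direction and 8 turned it: without knockout 3, H2-Aa, H2-Ab1, H2-Eb1, Cd74, Ciita and H2-DMa, and Ciita also without control 1 (-0.012) and without control 2 and knockout 3 together (-0.063). With single arrays left out, the differences ranged from -0.11 to 0.45 for H2-Aa, -0.034 to 0.56 for H2-Ab1, -0.043 to 0.42 for H2-Eb1, -0.15 to 0.41 for Cd74, -0.20 to 0.31 for Ciita and -0.14 to 0.56 for H2-DMa, the low end being without knockout 3 in each. The cause was not tested. Of 8 relations of H2-Aa with members 5 passed, and 2 without the 2 farthest arrays. Of 14 relations with lists 3 passed, and 0 without those arrays, where 6 arrays remain and p cannot be as small. With deviations from each group's mean, where the permutation p is only approximate, 5 relations with members and 4 with lists passed. The added list was the endothelium markers. Dim probe sets, such as those of Ciita, H2-Ob, Nlrc5, Fcer2a and Marchf1, lie near or under the array medians, which limits what they can show.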
